A study of Mus musculus with 9 samples.

Results

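An antibody against PDL1, given alone, was compared with an isotype control antibody across all genes that could be tested in subcutaneous LLC tumours. A low-count filter (filterByExpr in edgeR with a minimum count of 10) kept 14506 of the 34745 genes in the deposited table as members of the comparison, and 13060 genes had no count in any tumour. The control group was 3 tumours from mice injected i.p. with the isotype antibody at 10 mg/kg, and the treated group was 3 tumours from mice injected i.p. with anti-PDL1 at 10 mg/kg. A further 3 tumours had received the same anti-PDL1 together with BTZ (bortezomib, a proteasome inhibitor) at 0.5 mg/kg, and they helped to estimate the spread of each gene. Every host was a male C57BL/6 mouse of WT genotype, with an age label of 6 to 8 that carries no unit. Tumours grew from cultured LLC cells placed in the right flank, and treatment followed randomisation near 100 mm3. The number of injections and the time and hour of harvest are not given in the sources used here.

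LLC (Lewis lung carcinoma) is a transplantable mouse line, so these tumours grew under the skin and not in lung. The label calls the cells lung adenocarcinoma. Among markers of lung epithelium, Nkx2-1, Sftpa1, Sftpb, Sftpc, Sftpd and Scgb1a1 had no count in any of the 9 tumours, and the epithelial adhesion gene Epcam had at most 5 counts. Keratin gene Krt18 ran from 56.6 to 113 CPM (counts-per-million, with library sizes scaled by the TMM method of edgeR) and the mesenchymal filament gene Vim from 2201 to 2840 CPM. The libraries were made from whole tumour tissue, so each value mixes cancer cells with host cells.

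PDL1, the product of Cd274, is a surface ligand that cancer cells and myeloid cells display. It engages PD-1 on T cells and damps signalling from the T cell receptor, and interferon-gamma released by active T cells in turn induces it. Antibodies that block this contact are used to restore T cell activity, and readouts of such treatment are T cell genes, cytotoxic granule genes, interferon-gamma target genes and antigen presentation genes.

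Column totals ran from 18516282 to 21509953 counts, and the fitted log2 fold changes had an SE of 0.138 at the median gene. Skeletal muscle RNA varied between tumours of the same group, with list scores of -3.72, -2.98 and 4.54 in the isotype and 3.36, 0.0131 and 0.899 in the anti-PDL1 tumours. A list score is the mean over the list of log2 CPM minus each gene's mean over the 9 tumours. Isotype replicate 2 stood apart by its low immune scores. The isotype tumours also differed more among themselves, with a median SD per gene of 0.168 on the log2 CPM scale against 0.13 in the anti-PDL1 and 0.143 in the BTZ+anti-PDL1 tumours.

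Ski and Tmem70 fell under anti-PDL1, and they were the 2 genes of 14506 that edgeR called at an adjusted p under 0.05 (0.0138% of genes tested). Apart from these, the comparison was one of many small differences. At an unadjusted p under 0.05 there were 437 higher genes (3.01%) and 484 lower genes (3.34%). In 882 genes (6.08%) all 3 anti-PDL1 tumours lay above all 3 isotype tumours, and in 959 genes (6.61%) all 3 lay below. A value above 0 was found for 49.0% of genes, a value below 0 for 51.0%, and the median log2 fold change of all genes was -0.0034. DESeq2, fitted to the same genes, called 15 of 14448 (0.104%), 8 higher and 7 lower, among them both edgeR calls.

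**Figure D1:**
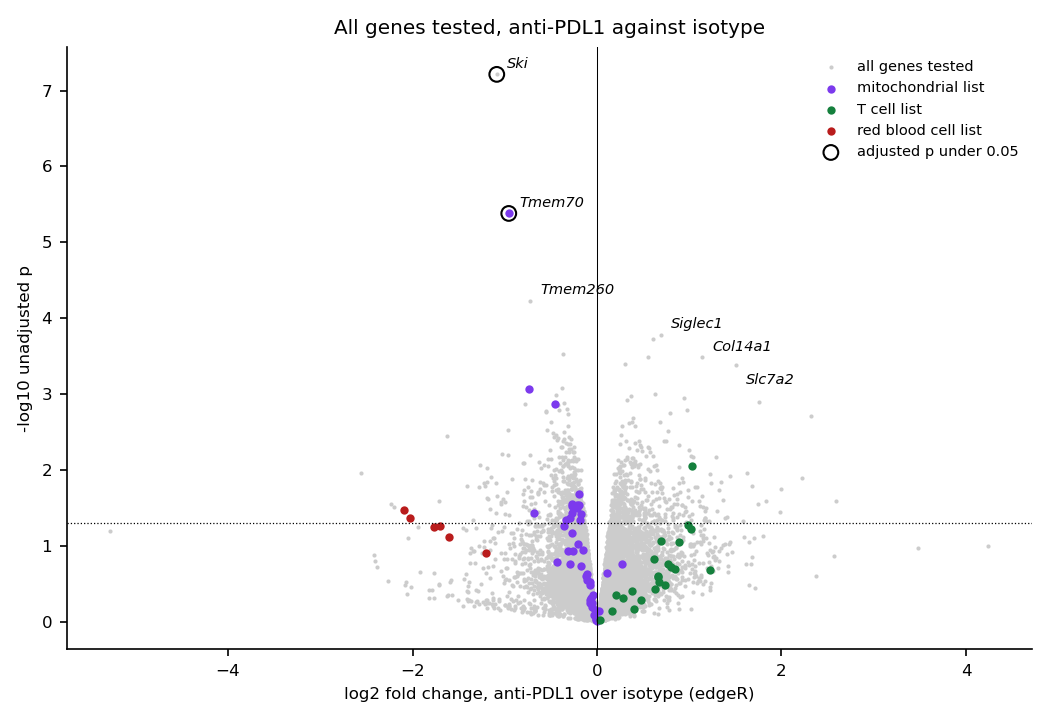
Each grey point is 1 of the 14506 genes tested, with the log2 fold change of anti-PDL1 over isotype on the x axis and the -log10 of the unadjusted edgeR p on the y axis (dotted line, p of 0.05). Coloured points are 3 gene lists and circles mark adjusted p under 0.05; Ski and Tmem70 stand alone at the top, T cell genes lie to the right of 0 and mitochondrial and red blood cell genes mostly to the left.

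Ski encodes a co-repressor that binds SMAD proteins and holds back transcription driven by TGF-beta (ENSMUSG00000029050, chr4:155154075-155222592, minus strand, build mm10). Its level was 182, 192 and 172 CPM in the isotype tumours and 86.6, 82.4 and 87.7 CPM in the anti-PDL1 tumours. The groups did not overlap, and the BTZ+anti-PDL1 tumours, at 185, 161 and 177 CPM, lay with the isotype tumours. Anti-PDL1 tumours thus held 0.471 times the isotype level (log2 fold change -1.09 ± 0.0728, SE, edgeR adjusted p = 0.000886). With 1 of the 6 compared tumours left out the fold change ran from -1.13 to -1.04.

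Genes of TGF-beta signalling stood on both sides of 0. Of its 26 tested genes 15 were higher and 11 lower, and the median was 0.03. Skil, the close relative of Ski, had 32.0, 28.5 and 28.1 CPM in isotype and 27.9, 33.0 and 32.3 CPM in anti-PDL1 tumours, so the groups overlapped. The type II receptor gene Tgfbr2 had 200.2, 188 and 199 CPM against 224, 232 and 216 CPM, a non-overlapping but small difference (log2 fold change 0.20 ± 0.0707, unadjusted p = 0.0209). Matrix gene Ctgf, a TGF-beta target, had 26.5, 64.9 and 24.2 CPM against 14.9, 24.2 and 22.3 CPM, and the inhibitory Smad7 had a log2 fold change of -0.21 ± 0.158. None of the list but Ski was called.

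Tmem70 encodes an inner membrane protein that helps to assemble the mitochondrial ATP synthase (ENSMUSG00000025940, chr1:16665207-16678275, plus strand, build mm10). Isotype tumours had 35.2, 39.2 and 37.8 CPM and anti-PDL1 tumours 18.7, 19.4 and 19.7 CPM, again without overlap. In the BTZ+anti-PDL1 tumours it was 41.6, 34.4 and 32.9 CPM. The log2 fold change was -0.96 ± 0.103 (edgeR adjusted p = 0.0301). This call was lost when any 1 of the 6 compared tumours was left out, with an edgeR adjusted p of 0.0506 to 0.275, while the fold change ran from -0.99 to -0.92. The assembly factor gene Atpaf1 had a log2 fold change of 0.27 ± 0.182.

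Both calls belong to a count pattern that is seen elsewhere in the table. For 96 of 13237 genes examined the 9 tumours fell on 2 separate levels (a gap of at least 0.5 on the log2 CPM scale, more than 2 times the range within a level). These 96 genes followed 81 different splits of the 9 tumours, and in 3 of them the levels separated all isotype from all anti-PDL1 tumours, namely Ski, Tmem70 and the membrane protein gene Emp1. Emp1 had 272, 306 and 239.9 CPM in isotype, 923, 861 and 844 CPM in anti-PDL1, and 239, 947 and 244 CPM in BTZ+anti-PDL1 tumours. Flanking genes of Ski and Tmem70 did not show such a clean step. Beside Ski, Rer1 had 97.3, 100.0 and 105 CPM against 93.9, 97.2 and 97.1 CPM. Prkcz, also beside Ski, had 0.84, 2.47 and 1.73 CPM against 0.7, 0.913 and 1.22 CPM, with overlap (log2 fold change -0.828). Beside Tmem70, Tceb1 was lower without overlap, at 56.7, 58.4 and 63.9 CPM against 51.9, 52.5 and 53.1 CPM (-0.185). Ube2w had 29.9, 26.8 and 27.2 CPM against 25.4, 26.8 and 26.7 CPM. With the 96 genes on 2 levels left out, Ski and Tmem70 among them, edgeR called no other gene. The rule picks genes with tight levels and a wide gap, which favours a small p where the levels follow the groups. That outcome was therefore largely set by the rule, and the origin of the levels was not tested. When the most muscle-rich tumour of every group was dropped edgeR called 0 genes (adjusted p = 0.0684 for Ski and 0.197 for Tmem70), with fewer tumours and log2 fold changes of -1.13 for Ski and -0.93 for Tmem70.

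**Figure D2:**
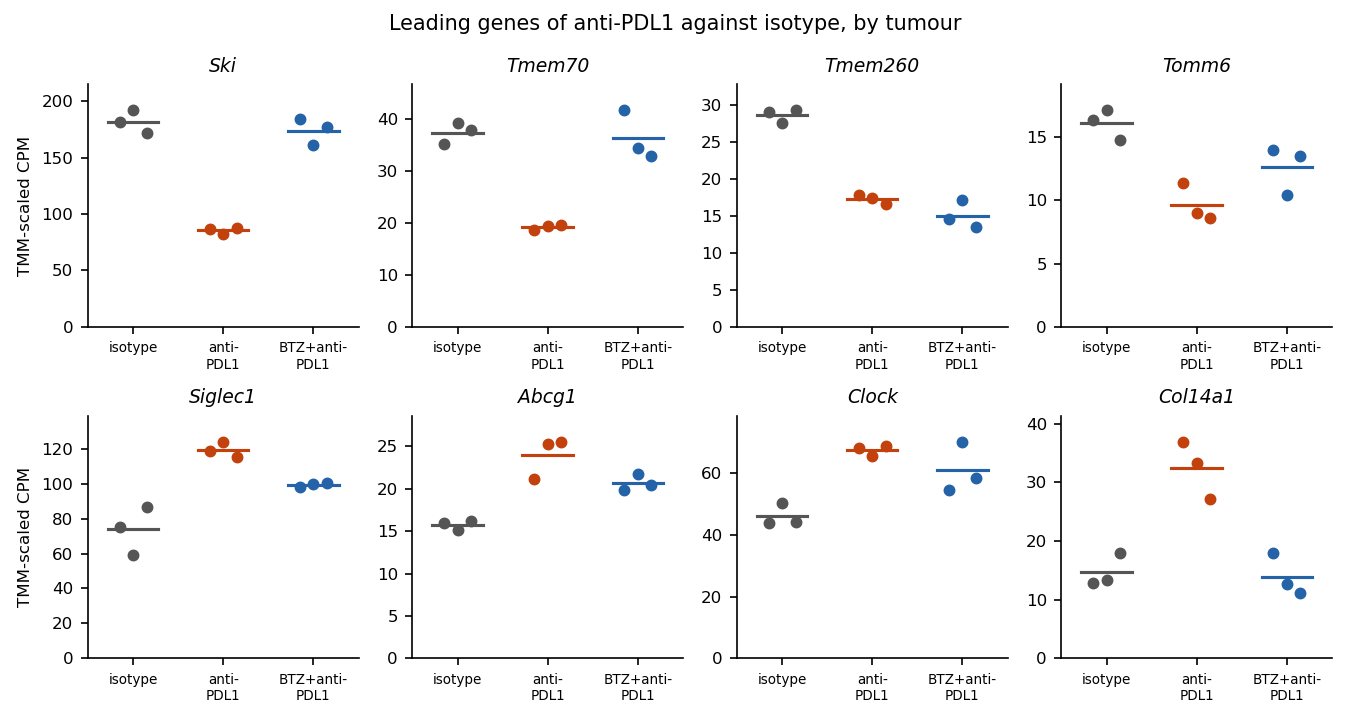
TMM-scaled CPM (y axis, from 0) of 8 leading genes in each of the 9 tumours, with a line at each group mean. Ski, Tmem70 and Col14a1 in BTZ+anti-PDL1 tumours lie near the isotype level, whereas Tmem260 stays low; in all 8 genes the isotype and anti-PDL1 points do not overlap.

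No gene on the higher side passed in edgeR, and Siglec1 and Abcg1 had the smallest p there. Siglec1, the sialic acid receptor CD169 of tissue macrophages, had 75.3, 59.3 and 86.8 CPM in isotype and 119, 124 and 115 CPM in anti-PDL1 tumours (log2 fold change 0.69 ± 0.116, DESeq2 adjusted p = 0.000236). It was 98.2, 99.7 and 100.3 CPM in BTZ+anti-PDL1 tumours, between the other 2 groups. The cholesterol exporter gene Abcg1 had 15.9, 15.2 and 16.2 CPM against 21.1, 25.3 and 25.5 CPM (log2 fold change 0.61 ± 0.103, DESeq2 adjusted p = 0.00333). Isotype tumours lay within 1 CPM of each other, and every anti-PDL1 tumour was above them.

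Several surface receptors of myeloid cells had the same separation. Cd180, a Toll-like receptor homologue, had 12.1, 8.56 and 14.3 CPM in isotype and 18.2, 22.5 and 19.7 CPM in anti-PDL1 tumours. The receptor Gpr141 had 2.73, 1.93 and 2.35 CPM against 4.85, 4.11 and 4.54 CPM, and Cd200r4, of the CD200 receptor family, had 2.83, 1.98 and 2.51 CPM against 5.40, 4.62 and 4.40 CPM. In each of these 3 genes isotype replicate 2 was the lowest tumour, and without it the log2 fold changes were 0.61, 0.83 and 0.85. The scavenger receptor Msr1 had 142, 81.3 and 122 CPM against 157, 146 and 177 CPM (0.48 ± 0.182), and Csf1r, the receptor for the growth factor CSF1, had 176, 101 and 199 CPM against 234, 223 and 207 CPM (0.48 ± 0.211).

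Over the list of scavenger and sialic acid receptors 16 of 17 tested genes were higher, at a median of 0.41 on the log2 scale. That median was 0.26 without isotype replicate 1 or 2 and 0.81 without isotype replicate 3. Of these 17, 3 had an unadjusted p under 0.05 on the higher side (17.6%, against 3.01% of all genes). In the macrophage and monocyte list 21 of 24 were higher (median 0.33, but 0.10 without isotype replicate 2 and 0.51 without isotype replicate 3). An unadjusted p under 0.05 was found for 2 higher genes (8.33%, against 3.01% of all genes) and 1 lower gene (4.17%, against 3.34%). The lower gene was Cd14, the co-receptor for lipopolysaccharide, at 55.8, 56.1 and 83.8 CPM against 51.2, 43.0 and 49.6 CPM. Cholesterol efflux genes other than Abcg1 did not follow it: the list had 12 of 18 higher with a median of 0.04, and Abca1, the partner exporter, had 0.14 ± 0.202.

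Other leading higher genes came from different functions. Col14a1, a collagen that decorates fibrils, had 12.9, 13.4 and 18.0 CPM in isotype and 36.9, 33.4 and 27.1 CPM in anti-PDL1 tumours (log2 fold change 1.14 ± 0.207, DESeq2 adjusted p = 0.000536), and 18.0, 12.6 and 11.1 CPM in BTZ+anti-PDL1 tumours. The arginine transporter gene Slc7a2 had 2.99, 1.98 and 3.50 CPM against 7.15, 5.79 and 11.1 CPM (1.504 ± 0.285). Lgals3bp, a secreted galectin-binding glycoprotein, had 66.9, 74.4 and 74.9 CPM against 93.0, 124 and 118 CPM (0.63 ± 0.134). Each of these 3 was called by DESeq2 and separated the groups. Col14a1 stood apart from its list, since 19 of 26 collagen and matrix genes were higher by a median of 0.11 (-0.028 without isotype replicate 1, and -0.0294 when anti-PDL1 replicate 2 was left out) and Col3a1, an abundant fibrillar collagen, had 0.22 ± 0.147.

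Clock was also on the higher side, while other clock genes stood on either side of 0. Its product pairs with that of Arntl to drive the daily cycle. Isotype tumours had 43.9, 50.2 and 44.2 CPM and anti-PDL1 tumours 68.2, 65.6 and 68.7 CPM (log2 fold change 0.55 ± 0.101, DESeq2 adjusted p = 0.00434). Rora, a nuclear receptor that activates clock genes, had 1.05, 1.58 and 1.46 CPM against 3.70, 5.68 and 1.83 CPM, without overlap (1.45 ± 0.468). On the lower side, also without overlap, the repressor gene Cry1 had 30.5, 34.5 and 26.4 CPM against 23.4, 25.3 and 24.8 CPM, Nr1d1 had a log2 fold change of -0.42 ± 0.2 and Nfil3 -0.35 ± 0.169. Arntl itself had 0.05 ± 0.13. In the whole list 13 of 18 genes were lower (median -0.16), and the median was 0.0058 without isotype replicate 2. Groups did not overlap in 2 higher genes (11.1%, against 6.08% of all genes) and 3 lower genes (16.7%, against 6.61%) of the list.

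T cell genes all stood higher, 22 of 22, by a median of 0.67 on the log2 scale (1.59-fold). An unadjusted p under 0.05 was reached by 1 of them (4.55%, against 3.01% of all genes). Summed over the list the isotype tumours had 40.7, 13.4 and 56.1 CPM, the anti-PDL1 tumours 55.0, 60.6 and 50.9 CPM and the BTZ+anti-PDL1 tumours 77.5, 52.0 and 73.9 CPM. Isotype replicate 3 therefore lay within the anti-PDL1 range, and isotype replicate 2 was far below the other 8 tumours. In such whole-tissue RNA, fewer cells of a type and less RNA per cell cannot be told apart. Zap70, the kinase that binds the activated T cell receptor, had 1.31, 0.891 and 1.99 CPM in isotype and 3.10, 2.79 and 2.67 CPM in anti-PDL1 tumours (1.03 ± 0.314). It was 1 of 4 list members without overlap (18.2%, against 6.08% of all genes), with the co-stimulatory receptor Cd28, the adaptor Lat and the surface receptor Cd6.

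The median of the T cell list rested on isotype replicate 2. Without that tumour it was 0.24, and without isotype replicate 3 it was 1.27. The co-receptor gene Cd8a, which marks cytotoxic T cells, had 5.46, 0.396 and 4.81 CPM in isotype and 6.35, 5.02 and 5.10 CPM in anti-PDL1 tumours. Helper marker Cd4 had 1.31, 0.990 and 3.50 CPM against 2.65, 3.50 and 3.75 CPM, and Foxp3, of regulatory T cells, 0.682, 0.0990 and 1.25 CPM against 0.750, 1.62 and 0.702 CPM. For all 3 markers the groups overlapped.

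Cytotoxic genes split into members of opposite direction. Nkg7, a granule membrane protein, had 1.73, 1.19 and 3.61 CPM in isotype and 3.80, 4.67 and 3.42 CPM in anti-PDL1 tumours (0.86 ± 0.368), and the chemokine gene Ccl5 had 6.40, 1.09 and 6.74 CPM against 9.40, 10.2 and 7.12 CPM (0.91 ± 0.541). The main effector genes did not separate: granzyme B (Gzmb) had 12.3, 9.31 and 14.2 CPM against 8.90, 12.8 and 12.1 CPM, and perforin (Prf1) had 5.88, 6.58 and 3.19 CPM against 5.05, 5.33 and 4.50 CPM. In the list 15 of 22 genes were higher with a median of 0.46, which was 0.19 without isotype replicate 2 and 0.66 without isotype replicate 3. The 3 genes lower at an unadjusted p under 0.05 (13.6%, against 3.34% of all genes) were 3 granzymes.

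These 3 were Gzme, Gzmf and Gzmg, serine proteases whose genes lie in a granzyme cluster on chromosome 14. Gzme had 2.52, 5.40 and 1.15 CPM in isotype and 0.500, 0.609 and 0.422 CPM in anti-PDL1 tumours (log2 fold change -2.56 ± 0.792, edgeR adjusted p = 0.763). Gzmf had 5.62, 9.80 and 2.56 CPM against 1.75, 1.116 and 0.937 CPM (-2.24 ± 0.831), and Gzmg had 3.67, 7.23 and 1.62 CPM against 1.25, 0.863 and 0.609 CPM (-2.199 ± 0.842). In all 3 every anti-PDL1 tumour lay below every isotype tumour, while isotype replicate 2, the tumour with the lowest T cell score, was the highest of these 6. BTZ+anti-PDL1 tumours spanned the whole range, with Gzmf at 4.35, 14.2 and 1.56 CPM.

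Neighbouring granzymes, named here after their values were seen, showed less. Gzmd had 5.09, 11.7 and 2.51 CPM against 2.55, 1.42 and 1.08 CPM, and Gzmc had 10.8, 18.8 and 4.65 CPM against 7.25, 6.75 and 5.06 CPM, both with overlap. Sequences of this cluster are alike, so reads may be assigned to the wrong member. Of the 50-base words in the longest coding transcript 20.6% of Gzme, 21.7% of Gzmd, 19.8% of Gzmg and 7.36% of Gzmf also occur in another of 8 granzyme transcripts compared, against 0 in Gzmb (GENCODE M21). The counts of the single members are uncertain for that reason.

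Checkpoint genes gave a mixed picture. Cd274, which encodes the target of the antibody, had 18.5, 16.3 and 29.5 CPM in isotype and 25.95, 33.0 and 36.6 CPM in anti-PDL1 tumours, with 1 isotype tumour inside the anti-PDL1 range (0.57 ± 0.269). Its receptor gene Pdcd1 had 2.10, 0.248 and 2.88 CPM against 3.15, 2.99 and 2.01 CPM (0.64 ± 0.679). The inhibitory receptor Lag3 had 1.78, 1.04 and 1.67 CPM against 2.25, 2.59 and 2.53 CPM, without overlap (0.71 ± 0.368). Vsir, which encodes the inhibitory ligand VISTA, was the 1 non-overlapping member in the other direction, at 57.7, 46.2 and 69.3 CPM against 42.5, 31.8 and 36.3 CPM (-0.65 ± 0.284). Cd80, a co-stimulatory ligand that also binds PDL1, had 7.40, 5.40 and 10.2 CPM against 4.45, 5.58 and 4.68 CPM (-0.64 ± 0.23). In the list of regulatory T cell and checkpoint genes 13 of 18 were higher with a median of 0.36, which was 0.06 without isotype replicate 2 and 0.64 without isotype replicate 3. Groups were apart in 1 of the 18 on each side (5.56%), near the 6.08% higher and 6.61% lower of all genes. In this list 0 genes had an unadjusted p under 0.05.

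**Figure D3:**
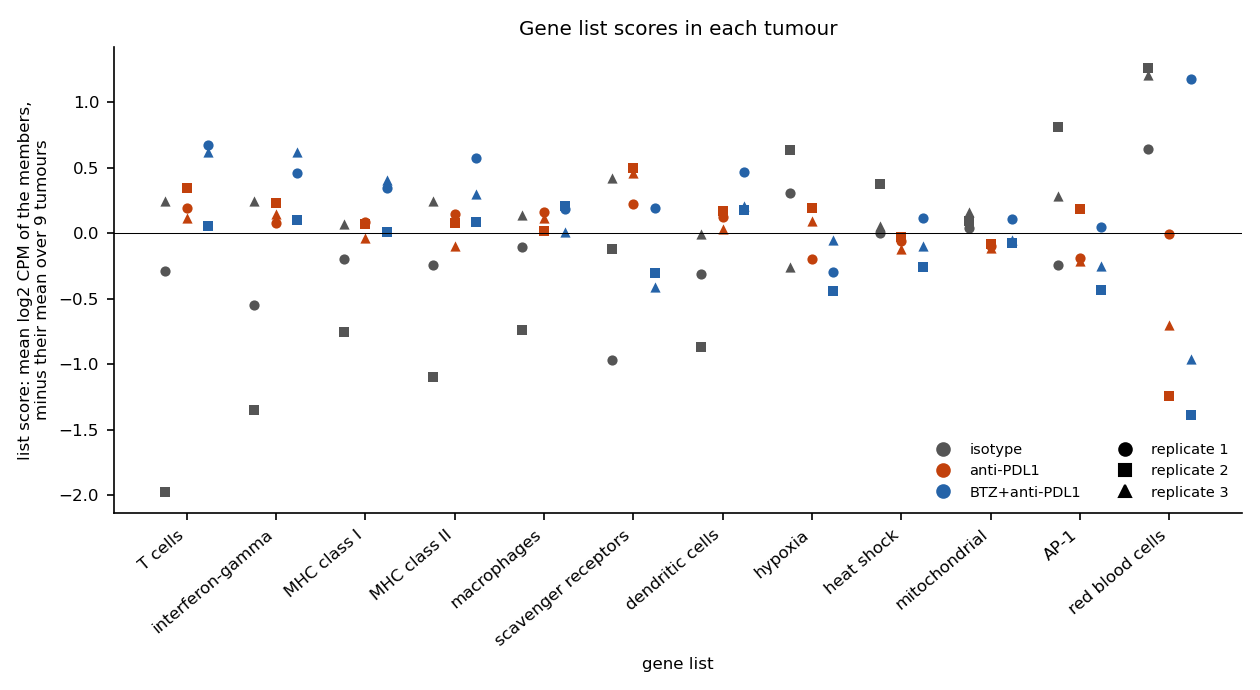
List score (y axis, mean over the members of log2 CPM minus each gene's mean over the 9 tumours) for 12 gene lists, with colour for group and marker shape for replicate number. Isotype replicate 2 is the lowest point in the T cell, interferon-gamma, MHC, macrophage and dendritic cell lists, and the 3 isotype tumours lie above the 3 anti-PDL1 tumours in the mitochondrial and red blood cell lists.

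Interferon-gamma pathway genes stood higher in 33 of 37 (median 0.52), with 1 at an unadjusted p under 0.05 (2.70%, against 3.01% of all genes) and 5 without overlap (13.5%, against 6.08%). Ifng itself had 0.210, 0 and 0.261 CPM in isotype, 0.300, 0.558 and 0.375 CPM in anti-PDL1 and 1.00, 1.01 and 0.572 CPM in BTZ+anti-PDL1 tumours. These are a handful of counts in each tumour. Icam1, an adhesion molecule that binds leukocyte integrins, had 14.1, 7.18 and 21.4 CPM against 22.4, 25.7 and 23.04 CPM (0.74 ± 0.317). The GTPase gene Iigp1 had 40.9, 10.4 and 60.0 CPM against 66.3, 68.2 and 72.1 CPM, and the chemokine gene Cxcl9 had 35.3, 5.35 and 69.5 CPM against 75.0, 76.5 and 56.3 CPM. In each, isotype replicate 2 was the lowest tumour, and without it the list median was 0.21. Without isotype replicate 3 that median was 1.13.

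Promoter windows of 3 interferon-gamma target genes are shown for motifs that some such genes carry, since 33 of 37 list members stood on the higher side. RefSeq windows (GRCm38.p6, 250 bases before to 50 bases after the gene start) were found for 25 of the 37 tested genes. They were searched for TTCNNNGAA, the core of the gamma-activated sequence, which reads the same on both strands, and on both strands for a pair of GAAA words with 2 bases between them, a form bound by interferon regulatory factors. Each motif was found in at least 1 window of 12 of the 25 genes, and in 8.3% and 3.44% of all 32851 promoter windows, respectively. The first is counted per gene over all its windows and the second per single window, so these shares are not alike. A second window of Irf1 (chr11:53770223-53770522) held neither motif. Capitals mark the motif. For Icam1 (chr9:21015690-21015989, plus strand) TTCNNNGAA begins 42 bases before the gene start, for the transcription factor gene Irf1 (chr11:53769764-53770063, plus strand) 90 bases before it, and for the chemokine gene Cxcl10 (chr5:92348840-92349139, minus strand) the GAAA pair begins 213 bases before it. Each of these windows holds 1 match of 1 of the 2 motifs, and a match is a description and not a site.
Icam1: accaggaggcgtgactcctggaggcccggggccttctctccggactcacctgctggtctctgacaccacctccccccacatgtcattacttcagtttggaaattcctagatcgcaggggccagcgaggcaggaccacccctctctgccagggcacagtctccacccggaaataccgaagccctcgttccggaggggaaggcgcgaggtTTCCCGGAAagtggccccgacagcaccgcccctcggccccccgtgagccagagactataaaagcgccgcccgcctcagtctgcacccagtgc
Irf1: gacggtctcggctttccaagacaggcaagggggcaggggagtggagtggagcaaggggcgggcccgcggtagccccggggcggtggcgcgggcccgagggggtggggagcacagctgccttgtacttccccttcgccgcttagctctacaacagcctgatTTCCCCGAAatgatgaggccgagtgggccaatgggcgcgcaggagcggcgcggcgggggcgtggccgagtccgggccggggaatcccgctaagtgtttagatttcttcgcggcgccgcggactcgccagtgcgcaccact
Cxcl10: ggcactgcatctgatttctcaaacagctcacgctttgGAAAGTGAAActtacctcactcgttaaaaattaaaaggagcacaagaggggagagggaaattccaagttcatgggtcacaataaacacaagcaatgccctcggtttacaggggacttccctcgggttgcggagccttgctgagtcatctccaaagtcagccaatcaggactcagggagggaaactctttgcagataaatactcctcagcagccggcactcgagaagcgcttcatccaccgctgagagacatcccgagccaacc
Levels of the other 2 genes shown overlapped between groups. Irf1 had 66.5, 52.4 and 81.8 CPM in isotype and 71.5, 86.1 and 86.9 CPM in anti-PDL1 tumours, and Cxcl10 had 35.1, 19.5 and 50.2 CPM against 41.2, 50.7 and 46.7 CPM.

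Antigen presentation genes had the same profile with smaller values. MHC class I genes were higher in 22 of 24 (median 0.29) and class II genes in 14 of 15 (median 0.40), and these medians were 0.11 and 0.06 without isotype replicate 2 and 0.44 and 0.60 without isotype replicate 3. Erap1, the aminopeptidase that trims peptides for class I, had 71.3, 61.3 and 85.4 CPM in isotype and 98.4, 94.4 and 96.2 CPM in anti-PDL1 tumours, without overlap (0.41 ± 0.11). The class I heavy chain gene H2-D1 had 958, 734 and 1150 CPM against 1389, 1073 and 1068 CPM, and the class II chain gene H2-Aa 62.3, 25.7 and 131 CPM against 129.7, 104 and 89.1 CPM, both with overlap. Counts of histocompatibility genes are uncertain because their sequences are similar. Of the type I interferon-stimulated genes 32 of 39 stood higher (median 0.18, and 0.066 without isotype replicate 2). In the cGAS-STING relay, which senses cytosolic DNA, 7 of 10 genes were higher at a median of 0.05. Its member with the smallest p, the sensor gene Mb21d1, had 1.26, 1.09 and 2.67 CPM against 3.55, 3.50 and 2.86 CPM (0.98 ± 0.347).

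Among dendritic cell genes 14 of 17 stood higher (median 0.37, and 0.26 without isotype replicate 2 and 0.65 without isotype replicate 3). An unadjusted p under 0.05 on the higher side was found for 3 (17.6%, against 3.01% of all genes). Siglech, of plasmacytoid dendritic cells, had 0.262, 0.198 and 0.784 CPM in isotype and 1.10, 1.37 and 1.41 CPM in anti-PDL1 tumours, low levels that rest on few counts. Sirpa, a myeloid receptor that recognises CD47, had 57.7, 38.0 and 59.5 CPM against 68.7, 150 and 83.5 CPM, the second anti-PDL1 tumour being far above the rest. Fscn1, an actin-bundling gene of mature dendritic cells and of motile cancer cells, went the other way at 435, 481 and 455 CPM against 312, 280.1 and 381 CPM (-0.49 ± 0.12). Chemokine and receptor genes were higher in 13 of 20 (median 0.25, and 0.0933 without isotype replicate 2 and 0.49 without isotype replicate 3). B and plasma cell genes, 4 of 6 higher, had a median of 0.80 that was 0.49 to 1.72 with 1 tumour left out.

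Mitochondrial genes were the group with the most members past the unadjusted threshold. Of 43 tested genes of the respiratory chain, ATP synthase and protein import 39 were lower, by a median of -0.18 on the log2 scale (1.13-fold). An unadjusted p under 0.05 on the lower side was found for 15 of them (34.9%, against 3.34% of all genes), and in 18 (41.9%, against 6.61%) every anti-PDL1 tumour lay below every isotype tumour. Tmem70 was the 1 member called. With 1 compared tumour left out the list median lay between -0.188 and -0.145, and 32 genes were lower each time.

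In the protein import pore of the outer membrane all 7 Tomm genes were lower (median -0.20), 5 of them without overlap (against 6.61% of all genes). Tomm6, a small subunit that stabilises the pore, had 16.4, 17.1 and 14.8 CPM in isotype and 11.4, 8.98 and 8.62 CPM in anti-PDL1 tumours (log2 fold change -0.74 ± 0.155, DESeq2 adjusted p = 0.0437). Tomm7 had 42.9, 39.4 and 42.0 CPM against 33.0, 29.6 and 28.4 CPM (-0.45 ± 0.101). BTZ+anti-PDL1 tumours had 14.0, 10.4 and 13.5 CPM of Tomm6 and 36.6, 29.6 and 30.9 CPM of Tomm7.

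Subunits of complex I and cytochrome oxidase had medians of like size, while complex III genes, 3 of 4 lower, had a median of -0.109. All 10 complex I genes were lower (median -0.21), 3 of them without overlap (against 6.61% of all genes). All 7 cytochrome oxidase genes were lower too (median -0.22). Of these, 4 were without overlap (against 6.61% of all genes) and 5 had an unadjusted p under 0.05 (against 3.34%). Cox5a, for example, had 65.3, 69.3 and 80.3 CPM against 62.9, 57.9 and 57.2 CPM. Complex II genes, at a median of -0.04, and ATP synthase subunits, also at -0.04, lay near the median of all genes. The abundant catalytic subunit gene Atp5b had 918, 979.6 and 922 CPM against 891, 933 and 945 CPM, which overlap. Hax1, an anti-apoptotic mitochondrial protein, had 33.8, 33.5 and 30.4 CPM against 20.4, 23.9 and 22.6 CPM (-0.55 ± 0.127), and Park7, a redox-sensing protein, had 144, 142 and 120.0 CPM against 102, 110.3 and 104 CPM (-0.36 ± 0.0809).

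Short genes as a whole were lower. Gene length was taken from the ratio of deposited counts to FPKM for 9828 genes with a mean of at least 10 CPM. Genes were split into 10 classes of rising length. In the shortest class (204 to 1958 bases) 76.3% of genes were lower with a median of -0.0919, against a median of 0.023 in the longest class, and all 3 isotype tumours lay above all 3 anti-PDL1 tumours in that shortest class. Mitochondrial genes are short, with a median implied length of 2610 bases against 5070 for all genes tested. Set against the median of their own length class, 34 of 39 mitochondrial genes were still lower, by a median of -0.10. The part of gene length in these results was not tested further.

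**Figure D4:**
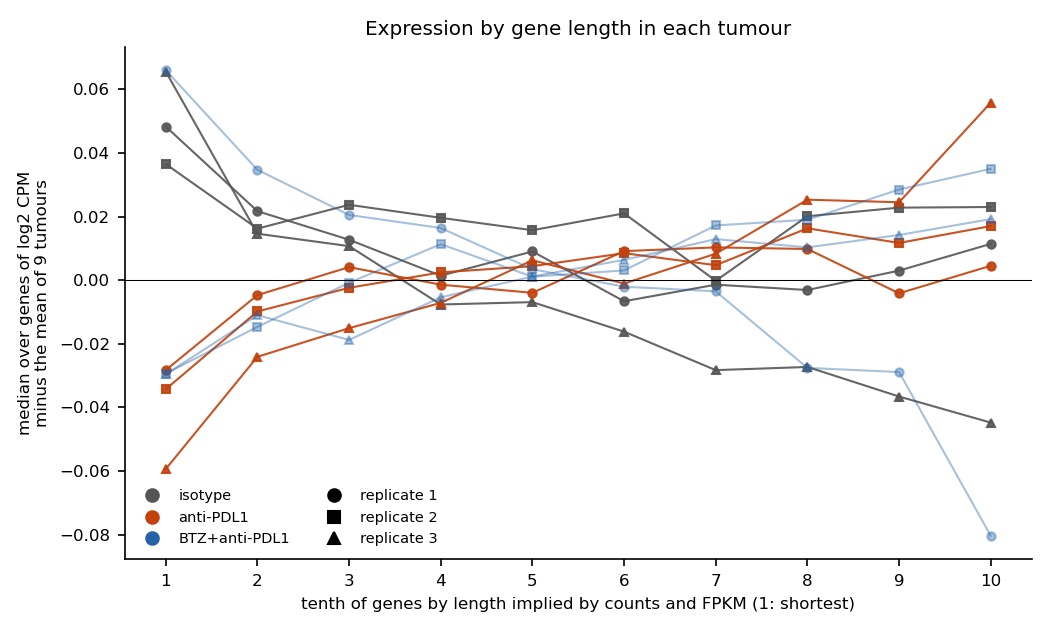
Genes with a mean of at least 10 CPM were split into 10 classes by the length implied by counts and FPKM (x axis, shortest at 1), and the y axis gives the median over genes of the deviation from the 9-tumour mean in log2 CPM, with 1 line per tumour. In the shortest class the isotype tumours lie at 0.0365 to 0.0656 and the anti-PDL1 tumours at -0.0594 to -0.0283; BTZ+anti-PDL1 replicate 1 follows the isotype tumours.

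Genes of protein synthesis, folding and degradation were lower by small amounts. Cytosolic ribosomal protein genes were lower in 37 of 40 (median -0.11), 26 of 37 also against their length class, and Rpl13 had 52.4, 58.0 and 62.1 CPM in isotype and 47.5, 39.8 and 44.1 CPM in anti-PDL1 tumours. Ribosomal genes have many processed copies, so their counts are uncertain. Proteasome subunits were lower in 29 of 31 (median -0.07), the lowest value being -0.15. Heat shock and chaperone genes were lower in 19 of 19 (median -0.17, and -0.0824 without isotype replicate 2), with 4 at an unadjusted p under 0.05 (21.1%, against 3.34%). Dnajc21, a chaperone of ribosome maturation, had 54.3, 59.3 and 53.1 CPM against 40.2, 42.5 and 45.1 CPM (-0.38 ± 0.0802).

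Integrated stress and unfolded protein response genes were lower in 19 of 22 (median -0.25, and -0.16 without anti-PDL1 replicate 1), and Atf4, the central transcription factor of the integrated stress response, had 429.6, 402 and 361 CPM in isotype and 276, 335 and 318 CPM in anti-PDL1 tumours, without overlap (-0.36 ± 0.095). Of the AP-1 and immediate early genes 23 of 24 were lower (median -0.35, and -0.14 without isotype replicate 2). Fosl2, an AP-1 subunit, had 223, 277 and 243 CPM against 212, 208 and 212 CPM, and the nuclear receptor gene Nr4a1 had 16.9, 41.5 and 35.7 CPM against 19.5, 18.9 and 16.6 CPM. Of the NF-kappaB and inflammatory cytokine genes 5 of 20 were higher and 15 lower (median -0.21, values from -1.21 to 0.983). The cytokine gene Lif, with the smallest p of that list, had 50.01, 83.8 and 41.4 CPM against 30.9, 31.3 and 13.7 CPM, without overlap (-1.21 ± 0.395). Ptgs2, the inducible prostaglandin synthase, had 280.1, 363 and 164 CPM against 127, 168 and 168 CPM, with overlap.

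Blood and vessel genes were lower, and hypoxia genes followed 1 tumour. All 6 tested red blood cell genes lay lower in every anti-PDL1 than in every isotype tumour, by a median of -1.73 on the log2 scale (3.33-fold), where 6.61% of all genes were so separated. An unadjusted p under 0.05 was reached by 2 of the 6 (33.3%, against 3.34% of all genes on the lower side). Haemoglobin gene Hba-a1 had 42.3, 80.2 and 57.2 CPM in isotype, 26.5, 15.7 and 16.9 CPM in anti-PDL1 and 64.0, 7.27 and 13.7 CPM in BTZ+anti-PDL1 tumours. Of the endothelial genes 13 of 15 lay lower, at a median of -0.23 and no gene at an unadjusted p under 0.05. Hypoxia and glycolysis genes were lower in 21 of 22 (median -0.22), but without isotype replicate 2 the median was -0.0048. The endothelial median was -0.04 without that tumour.

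**Figure D5:**
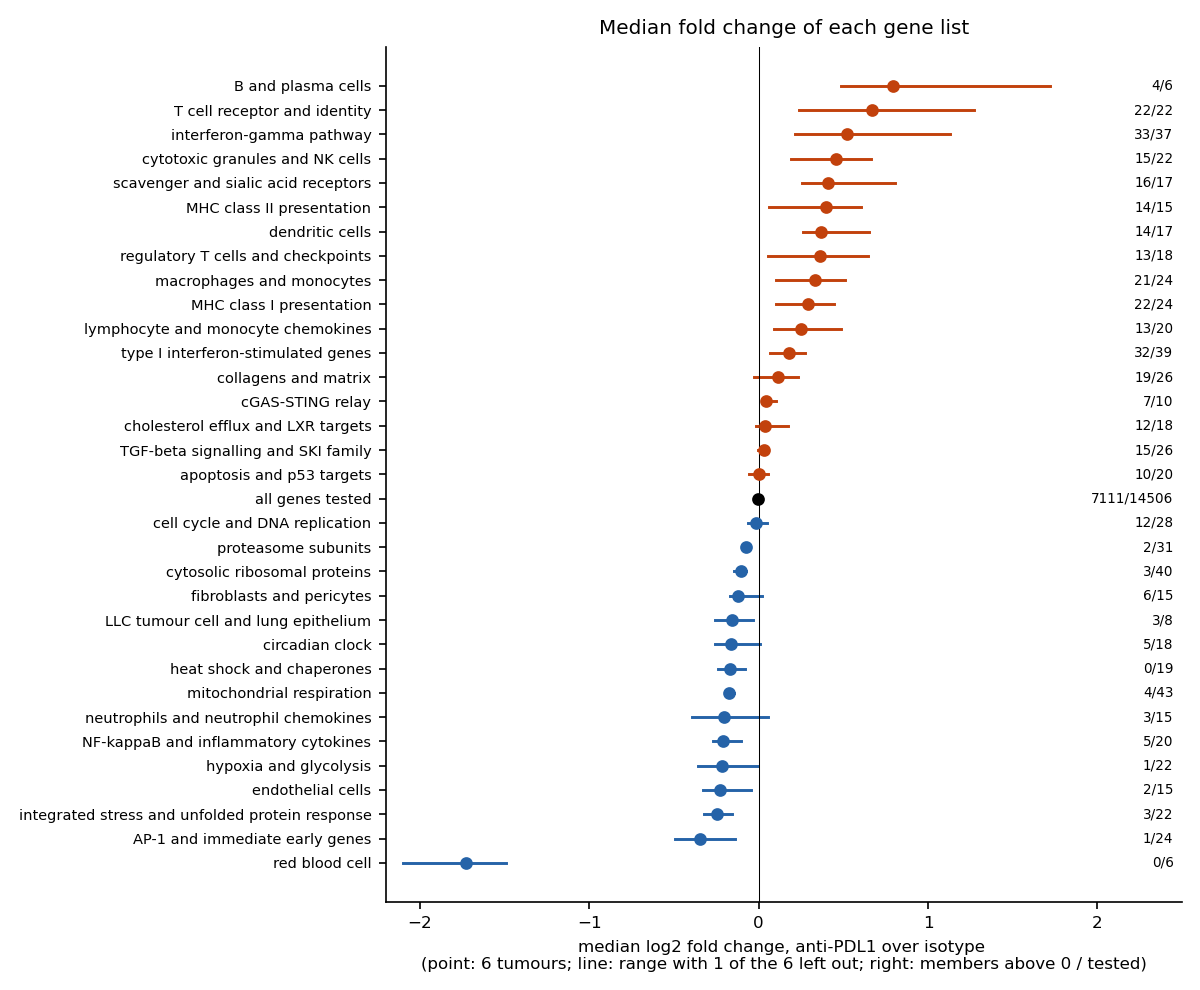
Median log2 fold change of anti-PDL1 over isotype (x axis) for 32 gene lists and all genes tested, as a point, with a line for the range when 1 of the 6 compared tumours is left out, and at the right the members above 0 of those tested. Mitochondrial and proteasome lists have short ranges on the lower side, and the T cell, interferon-gamma and MHC class II lists have long ranges on the higher side; the skeletal muscle, adipocyte and keratinocyte lists are left out.

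Lists of cell cycle, apoptosis and other tissue genes gave values near 0 or values set by single tumours. In the list of LLC tumour cell and lung epithelium genes 5 of 8 were lower and 3 higher, at a median of -0.157. That median ran from -0.258 to -0.0306 with 1 compared tumour left out, and 0 of these genes had an unadjusted p under 0.05. Cell cycle genes had a median of -0.01 (12 of 28 higher), and the proliferation gene Mki67 had 546, 594 and 695 CPM in isotype and 488, 635 and 607 CPM in anti-PDL1 tumours. Apoptosis and p53 target genes had a median of 0.0026 (10 of 20 higher). Skeletal muscle genes had a median of -1.0 that was 7.30 without isotype replicate 3, and adipocyte genes a median of -1.02 that was 4.46 without it. Neutrophil genes were lower in 12 of 15 (median -0.20), and 0.06 without isotype replicate 3.

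Among further leading lower genes Tmem260, which encodes an O-mannosyltransferase, came closest to a call. It had 29.1, 27.5 and 29.2 CPM in isotype, 17.9, 17.5 and 16.6 CPM in anti-PDL1 and 14.5, 17.1 and 13.5 CPM in BTZ+anti-PDL1 tumours (log2 fold change -0.73 ± 0.107, edgeR adjusted p = 0.284, DESeq2 adjusted p = 2.13e-05). Both groups that received the antibody were thus below the isotype group. The kinase gene Pim3, which supports protein synthesis and survival, had 56.5, 71.7 and 61.0 CPM against 45.4, 47.9 and 45.5 CPM (-0.45 ± 0.0963). Among genes with a fold change of at least 1 on the log2 scale, 136 were higher and 128 lower, of which 42 and 27 were past the unadjusted threshold. That threshold was passed by 3.01% and 3.34% of all genes. Many of these genes had low levels, with a median of 1.03 and 1.32 CPM, and 69 and 68 of them had a mean of at least 1 CPM.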

How the data were processed

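Bulk RNA sequencing of 9 LLC tumours was deposited as 1 table of counts and FPKM per gene. The deposited values were counts, so named in the column headers, and FPKM (fragments per kilobase and library size) computed by the authors. FPKM equalled a constant per gene and tumour times the count in the 11267 genes checked (largest relative deviation 1.51e-05). HISAT2 2.0.4, StringTie 1.3.3b and build mm10 are named in the submitters' processing notes; the counter, the annotation and any use of strand are not given in the sources used here. Whether reads of a gene and its antisense partner were counted apart is therefore unknown.

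Groups follow the treatment labels, with 3 tumours in each of 3 groups. Nothing states that tumours of a group came from separate litters or cages, and p-values measure the spread between these tumours. Counts were filtered with filterByExpr (minimum count 10), scaled by TMM and fitted with the quasi-likelihood test of edgeR 4.0.16 (R 4.3.3) with 3 group means over all 9 tumours, and p-values were adjusted over the 14506 genes by the Benjamini-Hochberg method. DESeq2 1.42.0, limma 3.58.1 on log2(FPKM + 1) and log2(FPKM + 0.1), other scalings and filters, a replicate block and leaving out tumours were alternatives. The test was checked on simulated data.

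Named genes were, by rule, those called, the 12 with the smallest p in each direction at a mean of at least 1 CPM (predicted loci left out), the member with the smallest p and the most abundant member of each list, and a panel of 26 genes. The text describes a part of these, and other list members, flanking genes and neighbouring granzymes were chosen as examples after their values were seen. Members and lists were chosen with earlier results of these data known. Depth was 18516282 to 21509953 counts per tumour, and intervals cover counting error and the spread between tumours only through the fitted standard errors. In the gene names 27 date-like symbols occur, and 57 symbols stand on several identifiers. Some items are not reported here.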

Additional observations from a re-analysis of the deposited data

How the results depend on the processing

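The number of genes called was 2 in edgeR, 15 in DESeq2, 1 with the replicate block, 0 without the most muscle-rich tumour of each group and 0 without the genes on 2 count levels, which include both calls. With 1 of the 9 tumours left out it was 1 to 4. Every further call of edgeR with 1 tumour left out was a gene on 2 count levels. That pattern itself favours a small p where the levels follow the groups. Of the 15 DESeq2 calls, 2 were on 2 count levels, namely Ski and Tmem70. Genes at an unadjusted p under 0.05 numbered 562 to 1505 with 1 tumour left out, the higher ones 248 to 917 and the lower ones 314 to 588; the lowest counts came without anti-PDL1 replicate 1 and the highest without isotype replicate 3. Without the most muscle-rich tumour of each group 674 genes were higher. RLE scaling, no filter on low counts and the muscle score as a covariate gave counts within 1.5 times of those reported, and the cause of the other shifts was not tested.

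Same-numbered isotype and anti-PDL1 tumours had correlations of their deviations of -0.137, 0.243 and -0.16. These values lay within the range of differently numbered isotype and anti-PDL1 tumours, -0.337 to 0.358. Such correlations cannot decide whether the numbers pair the tumours, because they do not record how the tumours were handled. The labels state no pairing. With the replicate block Ski kept its call (edgeR adjusted p = 0.0208) and Tmem70 did not (edgeR adjusted p = 0.316), 1 call in all.

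The direction turned in 6 of the genes described, each with overlapping groups. With 1 tumour left out the log2 fold change ran from -0.167 to 0.0216 for Vim, -0.0903 to 0.146 for Arntl, -0.232 to 0.0579 for Gzmb, -0.329 to 0.132 for Prf1, -0.0431 to 0.0095 for Atp5b and -0.156 to 0.0229 for Mki67. Without the most muscle-rich tumours it was -0.0601 for Arntl, 0.202 for Gzmb and 0.125 for Mki67, and it was 0.146 for Prf1 when the muscle score entered the fit. The median of the cytotoxic list, 0.46 in edgeR, was 0.03 on log2(FPKM + 1) and 0.06 on log2(FPKM + 0.1). Genes of a few CPM rest on few counts, which limits the lists of T cells, granzymes and checkpoints most.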

Other observations

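Genes on 2 count levels included abundant genes of known function whose levels cut across the groups. Kirrel, an adhesion molecule, had 278, 85.5 and 67.5 CPM in isotype, 306, 298 and 296 CPM in anti-PDL1 and 303, 69.0 and 337 CPM in BTZ+anti-PDL1 tumours. Rac1, a GTPase of the actin cytoskeleton, had 152, 150.4 and 139 CPM in isotype and 423, 137 and 420.2 CPM in anti-PDL1 tumours, so that 2 of the 3 treated tumours stood at the higher level. Rab22a, a GTPase of endosomes, had 17.8, 117 and 17.4 CPM against 128, 128 and 123 CPM. The choice of these 3 was made with their values in view.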
